A study of Mus musculus with 8 samples.

Results

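The replication-dependent histone genes encode the core histones H2A, H2B, H3 and H4 and the linker histone H1 that package newly copied DNA. Open-chromatin regions were taken as members when their centre lay within 2 kb of a gene with an older symbol beginning Hist1h, Hist2h, Hist3h or Hist4h, or a newer one beginning H1f, H2ac, H2bc, H3c or H4c. The rule found 68 regions of 160978 in all. It named 76 genes, 71 of them protein coding, and 72 of the 76 had at least 1 region within reach. The RefSeq table used for gene positions carries the newer symbols, and 6 genes were recognised by their older symbol only. The rule also takes in 5 H1f genes outside the clusters, namely the replication-independent linker histones H1f0, H1f7, H1f8 and H1f10 and the pseudogene H1f11-ps. Their 8 regions are kept apart below, which leaves 60 regions of the replication-dependent genes.

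ATAC-seq, which reads open chromatin by the places where a transposase can insert, was run on 8 libraries of mouse bone marrow. The cells were cKit+ and were depleted by sorting of lymphoid and erythroid cells, a fraction that holds haematopoietic stem and progenitor cells. The AML libraries were 2 from URE-delta/+;Tet2-/- mice and 2 from URE-delta/+;Tet2+/- mice. The normal libraries, from age-matched controls, were 1 each of URE-delta/+;Tet2+/+, URE+/+;Tet2-/-, URE+/+;Tet2+/- and URE+/+;Tet2+/+. URE is the upstream regulatory element of Spi1, the gene of the transcription factor PU.1, and Tet2 encodes an enzyme that oxidises methylated cytosine. All AML libraries carry both lesions and no normal library does, so an effect of leukemia and one of carrying both lesions cannot be told apart. The normal URE+/+;Tet2-/- and URE+/+;Tet2+/- libraries were on a flow-cell lane with no AML library. The other 2 normal libraries shared lanes with AML libraries. The part of the lane in the folds was not tested. Each region has 1 fold change, leukemic over non-leukemic, in the authors' deposited table, whose title carries the words PU.1 low. That title may limit the normal libraries compared, of which only 1 carries the URE deletion. The sources used here do not give the libraries on each side, nor the number of mice behind a library. No values per library were used, so no spread between replicates can be set beside any fold below, and the adjusted p-values are the authors' own. Depth per library is unknown.

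As a check of the cell fraction, regions near 6 genes expected in it reached log2 average abundances between 1.62 (Elane) and 3.26 (Kit). Among genes marking cells removed by the sort, Cd3e, Hba-a1 and Epb42 stayed between -0.82 and -0.36, Cd79a reached 1.41 and Klf1, an erythroid factor, reached 4.11. The part of any remaining erythroid cells in the values below was not tested.

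Replication-dependent histone genes are short, lack introns and end in a stem-loop in place of a poly(A) tail. Their transcription is raised in S phase, when the cofactor NPAT gathers on them at the histone locus body, and the stem-loop binding protein SLBP carries their messages through processing. In mammals they lie in clusters, the largest of which is Hist1. Many H2A and H2B genes are arranged as divergent pairs that share 1 short promoter. H4 promoters hold an element bound by HINFP, H2B promoters an octamer bound by OCT1, and H1 promoters an upstream H1 box.

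The promoters of 6 genes around which the results turn are printed below. They comprise genes from 4 of the 5 most abundant regions, namely H1f2, H2bc7, H2bc11 and H4c8, and the genes at the highest folds of the Hist3 and Hist1 clusters, H2bu2 and H3c11. Each runs 5′ to 3′ along the gene's strand, from 250 bases before to 50 bases after the RefSeq start, on GRCm38.p6. H1f2 lies at chr13:23738557-23738856 on the plus strand and H2bc7 at chr13:23574158-23574457 on the minus strand. H2bc11 lies at chr13:22042948-22043247 on the plus strand and H3c11 at chr13:21783348-21783647 on the minus strand. H4c8 lies at chr13:23530794-23531093 and H2bu2 at chr11:58948661-58948960, both on the plus strand. Capitals mark matches, on either strand, to the octamer core, the NF-Y box, the TBP box, the H1 box and the HINFP core, whose letters are given after the sequences.
H1f2: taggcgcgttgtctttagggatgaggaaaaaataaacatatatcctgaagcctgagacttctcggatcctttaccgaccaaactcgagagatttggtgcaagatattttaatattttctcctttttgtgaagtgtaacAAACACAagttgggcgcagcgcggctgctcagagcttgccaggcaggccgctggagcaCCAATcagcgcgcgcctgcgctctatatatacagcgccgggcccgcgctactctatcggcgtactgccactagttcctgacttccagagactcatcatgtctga
H2bc7: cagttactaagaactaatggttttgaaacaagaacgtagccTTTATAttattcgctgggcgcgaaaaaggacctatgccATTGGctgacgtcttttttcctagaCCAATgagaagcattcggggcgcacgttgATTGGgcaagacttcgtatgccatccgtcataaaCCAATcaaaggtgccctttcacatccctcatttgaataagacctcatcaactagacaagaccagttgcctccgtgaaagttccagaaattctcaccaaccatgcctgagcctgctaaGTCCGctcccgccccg
H2bc11: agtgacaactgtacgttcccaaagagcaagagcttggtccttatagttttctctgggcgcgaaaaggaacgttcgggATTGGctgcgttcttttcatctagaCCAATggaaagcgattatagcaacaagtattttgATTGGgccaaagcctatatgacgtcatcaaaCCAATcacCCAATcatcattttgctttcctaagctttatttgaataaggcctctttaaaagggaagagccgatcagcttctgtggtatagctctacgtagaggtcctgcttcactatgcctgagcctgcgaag
H3c11: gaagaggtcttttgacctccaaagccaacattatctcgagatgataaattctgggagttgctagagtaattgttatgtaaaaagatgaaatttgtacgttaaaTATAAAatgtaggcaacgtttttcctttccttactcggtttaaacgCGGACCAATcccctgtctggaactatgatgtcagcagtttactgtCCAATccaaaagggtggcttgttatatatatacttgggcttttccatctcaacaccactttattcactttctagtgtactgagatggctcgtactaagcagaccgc
H4c8: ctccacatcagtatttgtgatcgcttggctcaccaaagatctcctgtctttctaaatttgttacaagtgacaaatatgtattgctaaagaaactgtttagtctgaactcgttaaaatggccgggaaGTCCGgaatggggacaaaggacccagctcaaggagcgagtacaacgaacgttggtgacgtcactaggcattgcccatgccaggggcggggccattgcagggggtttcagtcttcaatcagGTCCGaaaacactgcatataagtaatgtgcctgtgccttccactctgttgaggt
H2bu2: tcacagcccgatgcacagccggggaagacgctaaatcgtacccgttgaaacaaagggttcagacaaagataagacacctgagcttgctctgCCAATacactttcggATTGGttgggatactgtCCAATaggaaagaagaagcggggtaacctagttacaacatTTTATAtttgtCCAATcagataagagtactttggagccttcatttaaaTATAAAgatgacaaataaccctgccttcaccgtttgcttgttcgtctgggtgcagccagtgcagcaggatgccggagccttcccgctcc

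The elements searched were the octamer core TTTGCAT and the NF-Y box CCAAT. The TBP box was TATAAA and the H1 box was AAACACA. The HINFP core was GTCCG and the PU.1 core was GAGGAA. Both strands were searched, so a capital run may be the reverse complement of these letters, and elements may overlap, as 1 HINFP core and 1 NF-Y box do in the H3c11 promoter. H1f2 holds 1 H1 box and 1 NF-Y box, and H4c8 holds 2 HINFP cores. The PU.1 core is not capitalised in the sequences, and H1f2 also holds 1, near the 5′ end of its window. H2bc11 holds 5 NF-Y boxes, and H2bc7 holds 4 NF-Y boxes, 1 TBP box and 1 HINFP core. H2bu2 holds 4 NF-Y boxes and 2 TBP boxes. RefSeq gives 63 such windows for 62 of the replication-dependent genes.

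The shares of promoters with an element differed between histone classes. The HINFP core was found in 12 of 12 H4 promoters, against 23.4% of all 32851 promoters of the same length. It was not particular to H4, with 8 of 18 H2A (44.4%) and 6 of 17 H2B promoters (35.3%). Of the H3 promoters 1 of 10 held it, and of the H1 promoters 0 of 6. The H1 box was found in 5 of 6 H1 promoters, against 7.18% of all. The NF-Y box was present in every one of the 6 H1, 18 H2A, 17 H2B and 10 H3 windows, but in 3 of 12 H4 windows, against 37.4% of all. The octamer core was found in 7 of 18 H2A and 7 of 17 H2B windows, 1 H4 window and no H1 or H3 window, against 4.63% of all. In 10 divergent pairs of an H2A and an H2B gene, with starts 164 to 281 bp apart, the 2 windows cover largely the same bases. A match there can count under both classes, for every element searched, so the H2A and H2B counts are not independent. The TBP box stood in 55.6% of the 63 windows, against 13.6% of all. The PU.1 core, searched because the mice carry a Spi1 lesion, stood in 12.7% of the 63 windows, against 28.3% of all. The median GC content was 45.3% in the histone windows and 52.7% in all promoters. A match is a string of letters and says nothing of binding.

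**Figure D1:**
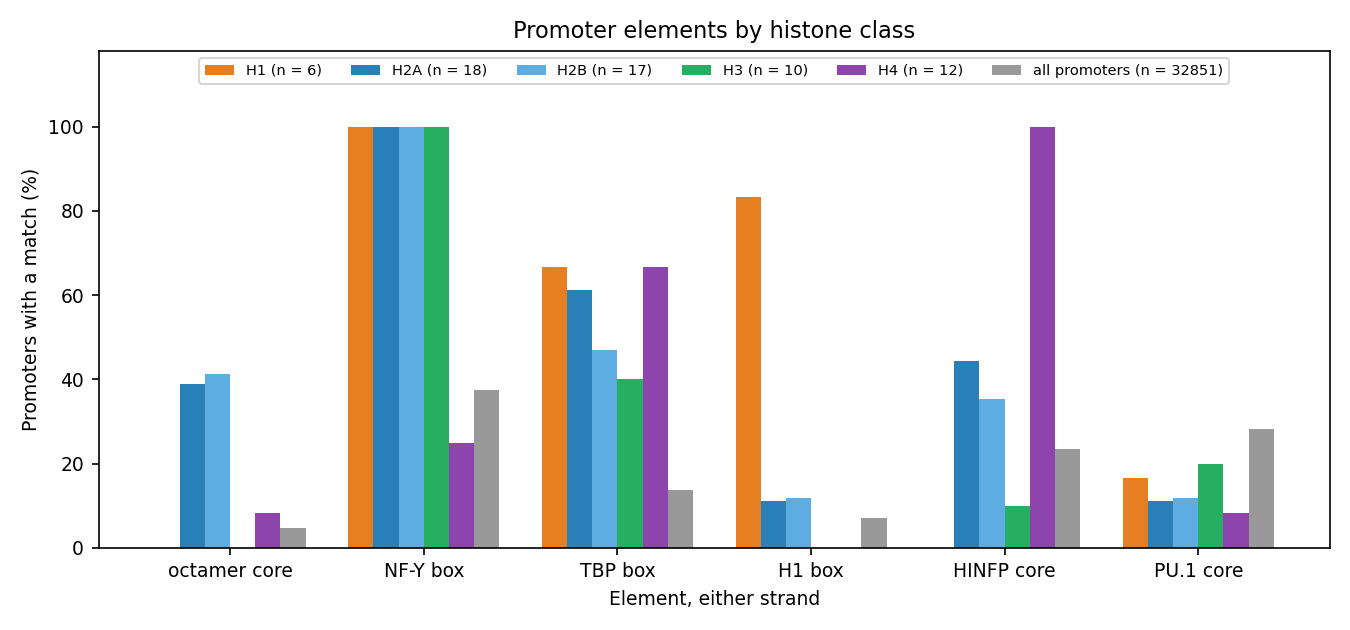
Share of RefSeq promoters (y axis, percent) with at least 1 match to each of 6 short elements (x axis), for 5 histone classes and for all promoters. The HINFP core is in all 12 H4 promoters and the NF-Y box is in every H1, H2A, H2B and H3 promoter.

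None of the 68 histone regions was in the authors' more accessible or less accessible set. Those sets hold the regions with an adjusted p under 0.001, which are 1.24% of all regions in the higher direction and 1.22% in the lower. At the looser limit of 0.05, 7 of 68 histone regions (10.3%) were higher in leukemic cells and 0 were lower. The background at 0.05 was 7.98% of all regions higher and 9.21% lower. The 10.3% lies near the background. The 13 histone regions in the authors' unchanged set, which requires an adjusted p over 0.9, made up 19.1% of the 68, against 11.9% of all regions.

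The folds at histone genes were small and mostly positive. The median log2 fold change over the 68 regions was 0.25, with quartiles of -0.01 and 0.49, and 51 of 68 were positive. Over all regions the median was 0.02, the quartiles were -0.71 and 0.60, and 50.6% were positive. The range was -0.75 to 1.62 at the histone genes, against -7.30 to 5.89 over all regions. Without the 8 regions of the H1f genes outside the clusters, the median stayed at 0.25 and 5 of 60 regions were under 0.05. The median over 97340 regions within the same distance of other protein-coding genes was 0.06.

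Starts of the member genes lay in a region more often than starts of other coding genes. The member rule, a centre within 2 kb of mostly short genes, itself favours regions on starts. Of 67 RefSeq starts of the member genes, 58 (86.6%) fell in a region, against 61.4% of the starts of other coding genes. Over the 44 regions that cover a histone gene start, the median log2 fold change was 0.21, and over 10690 regions on the start of another coding gene it was 0.20. The quartiles were -0.07 and 0.41 at the histone starts, against -0.30 and 0.62 at the other coding starts. So the histone starts and the other coding starts had nearly the same median. The other 24 histone regions, which cover no histone start, had a median of 0.46 and held 5 of the 7 regions under 0.05. Log2 average abundance, the authors' measure of read level, had a median of 3.40 at the 44 start regions and 0.39 at the 24 others. These medians are descriptions with no replicate error.

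**Figure D2:**
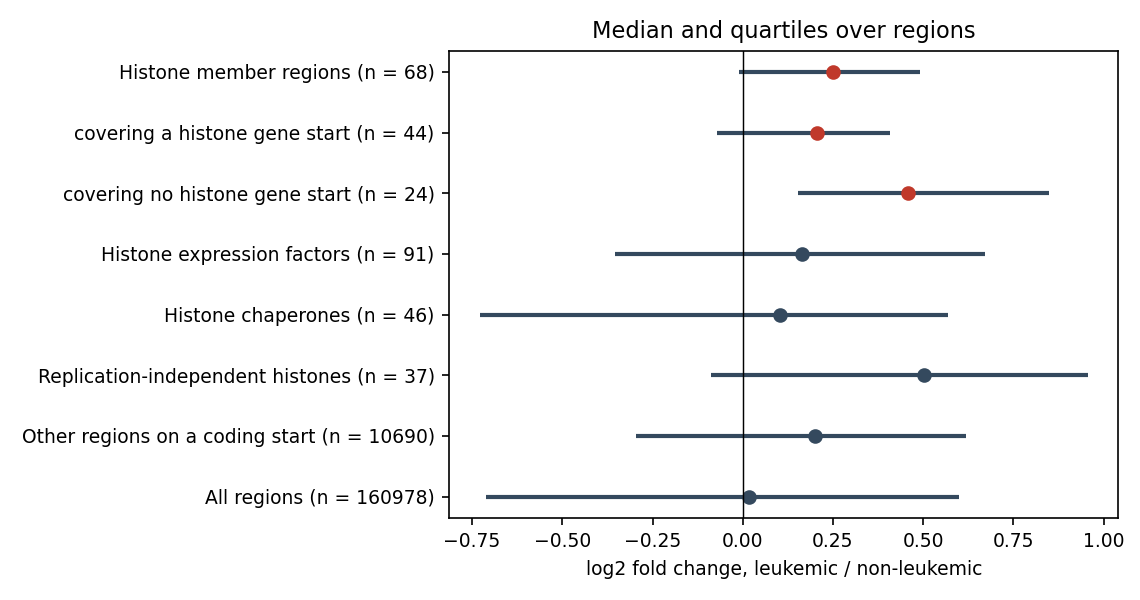
Median (points) and quartiles (bars) of the authors' log2 fold change, leukemic over non-leukemic, over the regions of each set (x axis). The 44 regions on histone starts have a median of 0.21, beside 0.20 for 10690 regions on other coding starts and 0.02 for all regions. Of the 37 regions of the replication-independent set, those of H1f0, H1f7, H1f8 and H1f10 are also among the 68.

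The 5 most abundant histone regions had log2 folds between -0.34 and 0.24. By the authors' deposited table, abundance peaked among the 68 at H1f2, a linker histone made in most somatic cells, at 5.23, with a log2 fold change of -0.06 and an adjusted p of 0.824. The region over the H2ac6 start and the H2B gene H2bc4 had an abundance of 5.12, a fold of -0.12 and an adjusted p of 1 in the authors' deposited table. H2bc11, another H2B gene, followed at 4.73, with a fold of -0.34 and an adjusted p of 0.309 in the same deposited table. The H4 gene H4c8 and the H2B gene H2bc7 had abundances of 4.61 and 4.57 and folds of 0.24 and -0.08 in the authors' deposited table. All 5 lie in the Hist1 cluster and none was under 0.05.

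Folds were higher at the less accessible histone regions. The 34 regions at or below the histone median abundance of 2.54 held 6 of the 7 regions under 0.05 and had a median fold of 0.40 (log2), and the 34 above it had a median of 0.21. Split at the same abundance, all regions had medians of 0.02 below and -0.00045 above. The 15 histone regions with an abundance over 4 had a median of -0.06, beside -0.11 for all 2394 such regions. Across the 68 regions, Spearman's rho between abundance and fold was -0.33 and Pearson's r was -0.27. Over all regions rho was -0.02. The points come from the same libraries and 1 comparison and include neighbouring regions, so no p is given.

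**Figure D3:**
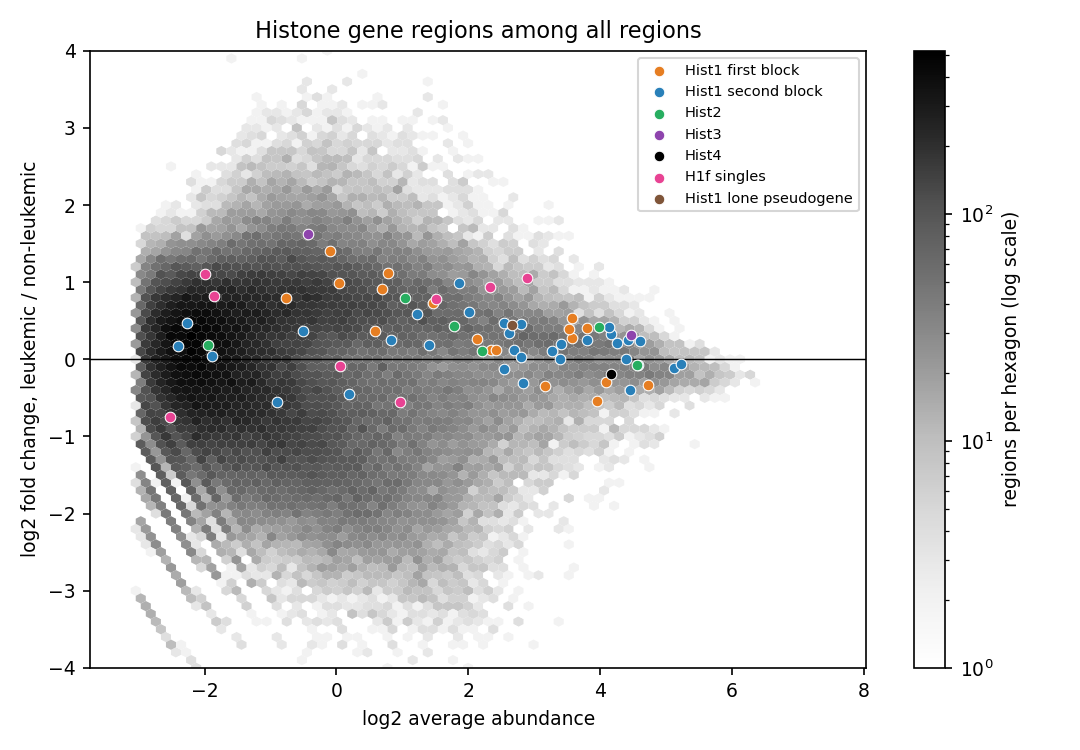
The authors' log2 average abundance (x axis) and log2 fold change, leukemic over non-leukemic (y axis, drawn from -4 to 4), for all regions as grey hexagons shaded by count on a log scale and for the 68 histone regions as points coloured by cluster. The 15 histone regions with an abundance over 4 have a median fold of -0.06, and 6 of the 7 regions under an adjusted p of 0.05 lie at or below an abundance of 2.54.

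The Hist1 cluster on chromosome 13 consists of 2 blocks of histone genes, 1487 kb apart. The first block spans 328 kb (21715711 to 22043658) with 24 genes and 18 regions, whose median log2 fold change was 0.38, with 14 positive. The second spans 404 kb (23531044 to 23934913) with 32 genes and 32 regions, whose median was 0.19, with 24 positive. None of the regions of either block passed 0.001, and 3 of the first and 1 of the second were under 0.05. The medians of non-member regions inside the same spans were 0.18 over 35 regions of the first block and -0.45 over 32 of the second. Within 500 kb outside the spans they were 0.56 over 41 regions around the first block and -0.05 over 97 around the second. So the surroundings of the first block had a higher median than its histone regions. Over all 8059 regions of chromosome 13 the median was -0.0018. The difference between the blocks was not tested.

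In the first block the highest fold was at the H3 gene H3c11. The region, chr13:21782262-21784180, covers the H3c11 start and had a log2 fold change of 1.40, an abundance of -0.10 and an adjusted p of 0.0236 in the authors' deposited table. The second value under 0.05 belonged to a 222 bp region, chr13:21803143-21803365, at 1693 bp from the extent of the H2B gene H2bc22. Its fold was 1.12, its abundance 0.78 and its adjusted p 0.0145 in the authors' deposited table, while the region over the H2bc22 start itself had -0.30, an abundance of 4.10 and an adjusted p of 0.273. The third lay 503 bp from the H3 gene H3c10, at chr13:21718394-21718842, with a fold of 0.99, an abundance of 0.04 and an adjusted p of 0.0482 in the authors' deposited table. The neighbouring region over the starts of H2ac13, H2bc13 and H3c10 had a fold of 0.13 and an adjusted p of 1 in that deposited table. So at H3c10 and at H2bc22 the value under 0.05 was beside the gene and not on its start.

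The lowest fold in the first block was at the divergent pair H2ac12 and H2bc12, with -0.54 and an adjusted p of 0.169 in the authors' deposited table. It opens a group of 3 regions at the far end of the block, past a stretch of 198 kb with no histone gene. The H4 gene H4c9 followed with -0.35, and the pair H2ac11 and H2bc11 with -0.34, both by the authors' deposited table. No region of the 3 was under 0.05. Their median was -0.35, and the other 15 regions of the block had a median of 0.41 with 14 positive. The group of 3 was picked after its values were seen.

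In the second block the highest fold was at a 237 bp region, chr13:23563192-23563429, 926 bp from the H3 gene H3c6. It had a log2 fold change of 0.99, an abundance of 1.86 and an adjusted p of 0.0192 in the authors' deposited table. By comparison, the region over the H3c6 start had 0.21, an abundance of 4.25 and an adjusted p of 0.460 in the same deposited table. The lowest fold was -0.55, at a 190 bp region inside the extent of H2bc4 with an abundance of -0.90 and an adjusted p of 0.462 in the authors' deposited table. Several regions of this block lie inside the long extent that RefSeq gives H2bc6, an H2B gene with 37455 bp. Its 8 regions ranged from -0.45 to 0.48. A stretch of 4 neighbouring promoters, H3c3, H2bc3, H2ac4 and H3c2, had folds of 0.01, 0.01, 0.03 and -0.13. The authors' deposited table gives them adjusted p-values of 1, 1, 0.974 and 0.779.

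The linker histones of Hist1 spread around 0. By the authors' deposited table, H1f3, H1f4 and H1f5 had log2 fold changes of 0.45, 0.42 and 0.27, and H1f2 and H1f1 had -0.06 and -0.30. Their adjusted p-values ran from 0.218 (H1f4) to 0.824 (H1f2). H1f6, the testis-specific linker histone, had its start in no region, and the region within its reach lies on the H4 gene H4c3. The testis-specific pair H2ac1 and H2bc1, at the far end of the second block, had no region within 2 kb. The only other genes without a region were H3c13 and H2bc18 at the end of Hist2. A Hist1 pseudogene elsewhere on chromosome 13, H2af-ps2, had a fold of 0.45 and an adjusted p of 0.199 in the authors' deposited table.

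Hist2, on chromosome 3, spans 50.3 kb with 10 genes and had 6 regions, none under 0.05, whose folds had a median of 0.30 (log2). The median was 0.41 over 152 regions within 500 kb outside this span, and -0.44 over 3 non-member regions inside it. The highest was 0.80, at the region over the H3c15 and H2ac19 starts, with an abundance of 1.03 and an adjusted p of 0.237 in the authors' deposited table. The lowest was -0.07, over the H3c14 and H2ac18 starts, with an abundance of 4.56 and an adjusted p of 1 in the same table. H2ac21 and the region over the H2ac20 start had 0.42 and 0.44, and H4c14 had 0.11, in the authors' deposited table. A region 1937 bp from H2bc21, the farthest inside the 2 kb limit, had 0.18. Outside the limit, the nearest region of Hist2 lay 3173 bp from H2bc21 and had -0.55. The nearest for any member gene, 2698 bp from H4c3 in the second Hist1 block, had 0.30.

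Hist3, on chromosome 11, has 3 genes in 6.28 kb and 2 regions. The region over the start of H2bu2, an H2B gene, had the highest fold of all 68. At chr11:58948228-58949194 its log2 fold change was 1.62, its abundance -0.43 and its adjusted p 0.00833 in the authors' deposited table. It also lies inside the gene model Gm51864. Its neighbour, over the H2aw start and the pseudogene H2bu1-ps, had a fold of 0.32, an abundance of 4.46 and an adjusted p of 0.313 in the deposited table. Hist4, on chromosome 6, is the single H4 gene H4f16, with a fold of -0.19, an abundance of 4.16 and an adjusted p of 0.824 in the authors' deposited table.

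**Figure D4:**
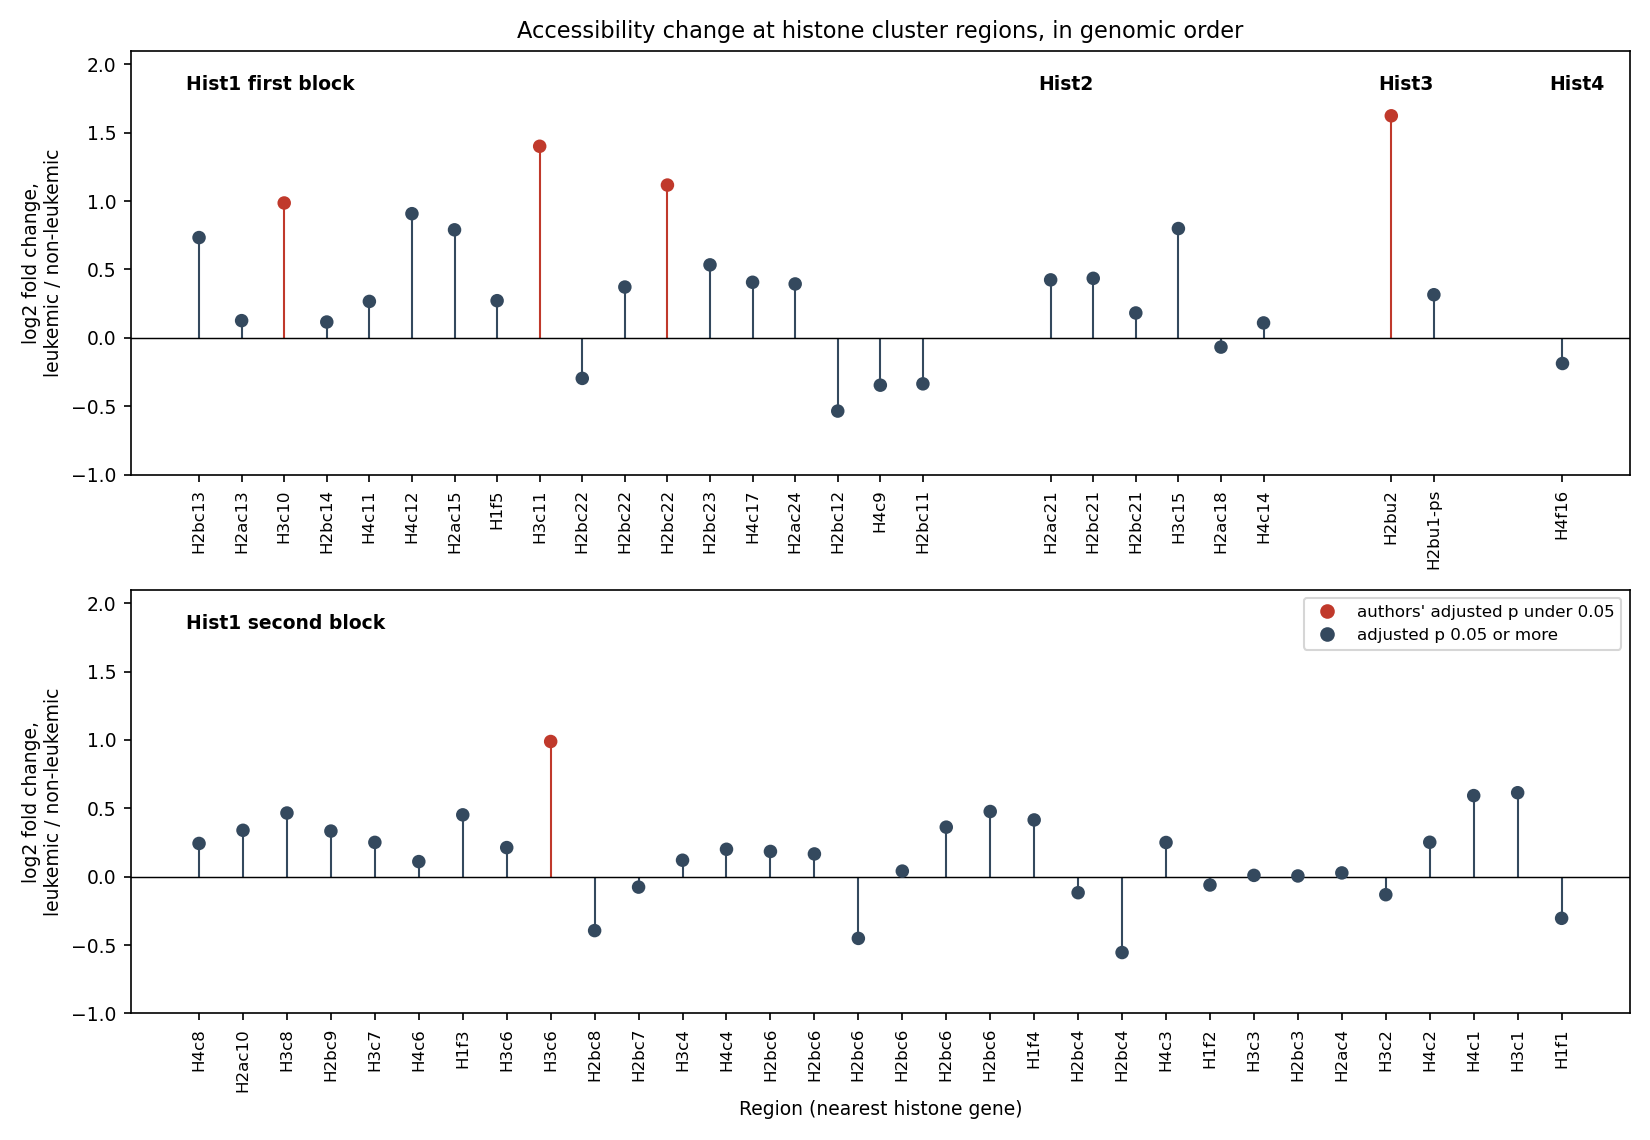
The authors' log2 fold change, leukemic over non-leukemic (y axis), for each region of the Hist1 blocks, Hist2, Hist3 and Hist4 in genomic order (x axis, named by the nearest histone gene). The 5 red points have an adjusted p under 0.05, from 0.99 at H3c10 and H3c6 to 1.62 at H2bu2, and the last 3 regions of the first block lie below 0.

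The 5 H1f genes outside the clusters are 4 that encode linker histones made outside S phase or in germ cells and the pseudogene H1f11-ps, whose 1 region had 0.78 in the authors' deposited table. Together they had 8 regions, whose folds had a median of 0.80 (log2). H1f0, the linker histone of cells that have left the cycle, held both regions under 0.05. The region inside the gene had a fold of 1.05, an abundance of 2.90 and an adjusted p of 0.00236 in the authors' deposited table. The other, 446 bp beyond the gene and inside Gcat, had 0.93, 2.33 and 0.0141 for the same 3 measures in the authors' deposited table. H1f0 had the lowest adjusted p of all 68 regions. The greatest fold of the 8 was 1.10 near H1f8, the oocyte linker histone, at a very low abundance and with an adjusted p of 0.145. The lowest was -0.75 near H1f7, the spermatid linker histone, with an abundance of -2.53 and an adjusted p of 0.389, both from the authors' deposited table.

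By class of the nearest gene, the median log2 fold over the clustered genes was 0.27 for H1 (5 regions), 0.37 for H2A (8), 0.17 for H2B (24), 0.47 for H3 (11) and 0.25 for H4 (12). Of the 5 regions of the clusters under 0.05, 3 were nearest an H3 gene and 2 an H2B gene. The classes overlap, since 35 of the 68 regions lie within 2 kb of more than 1 class. When each region was counted under every class in reach, the medians were 0.27 for H1, 0.12 for H2A, 0.19 for H2B, 0.23 for H3 and 0.25 for H4. The order of the classes therefore depended on how shared regions were counted, and no class is set apart by these medians.

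Divergent H2A and H2B genes share 1 open region. RefSeq starts gave 10 such pairs, with 164 to 281 bp between the starts, and in 9 of the 10 a single region covered both. The fold was therefore the same for both genes of a pair. It was positive in 4 and negative in 5, from -0.54 at H2ac12 and H2bc12 to 0.79 at H2ac15 and H2bc15, with a median of -0.08. The lowest adjusted p among the 9 was 0.169, so no shared promoter was under 0.05. The pair with the highest fold also had the lowest abundance, -0.77, and H2ac11 and H2bc11 had the highest abundance, 4.73. The exception was the testis pair H2ac1 and H2bc1.

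Some histone promoters are near copies, which limits how reads can be placed between them. Of 1953 pairs of the 63 windows, 4 were 90% identical or more, against a median of 43.7%. The H2B genes H2bc23 and H4bc24 (older name Hist1h2br) were identical over the window, and H4c17 and H4c18 were 99.3% identical. The region at H2bc23 had a fold of 0.53 and an abundance of 3.58, the region at H4bc24 and H4c18 had 0.39 and 3.53, and the region at H4c17 had 0.41 and 3.80, in the authors' deposited table. H4c11 and H4c12, at 91.3%, had folds of 0.27 and 0.91 and abundances of 2.13 and 0.69 in the authors' deposited table. The sources used here do not give the treatment of reads that match both copies, and its part in these values was not tested.

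The inverted H3 pair of Hist2, H3c14 and H3c15 at 94.7% identity, is printed because its near copies had unequal abundances. The windows below are on GRCm38.p6, H3c14 at chr3:96246435-96246734 on the plus strand and H3c15 at chr3:96239078-96239377 on the minus strand, each 5′ to 3′ along its gene. Capitals mark the bases that differ: the 15 end bases that the windows do not share and 1 substitution within the 285 they do.
H3c14: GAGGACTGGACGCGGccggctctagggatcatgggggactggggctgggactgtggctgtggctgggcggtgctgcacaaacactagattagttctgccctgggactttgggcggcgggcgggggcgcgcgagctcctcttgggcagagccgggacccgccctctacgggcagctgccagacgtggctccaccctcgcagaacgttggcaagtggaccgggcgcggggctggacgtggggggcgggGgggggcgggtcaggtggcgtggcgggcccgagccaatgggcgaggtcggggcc
H3c15: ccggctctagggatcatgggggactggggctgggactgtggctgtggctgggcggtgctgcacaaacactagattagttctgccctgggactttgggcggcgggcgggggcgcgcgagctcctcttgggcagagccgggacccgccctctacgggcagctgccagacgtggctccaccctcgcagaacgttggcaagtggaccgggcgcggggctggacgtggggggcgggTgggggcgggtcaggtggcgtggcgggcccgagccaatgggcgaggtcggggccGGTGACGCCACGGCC

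The region over H3c14 had an abundance of 4.56 and a log2 fold change of -0.07, against 1.03 and 0.80 over H3c15, in the authors' deposited table. Neither was under 0.05.

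An exact p of 1 was listed for 7 of the 68 histone regions (10.3%), against 2.21% of all regions. Their folds in the authors' deposited table ranged from -0.12 to 0.27 and their widths from 819 to 2631 bp. Such regions were wide in general, with a median of 981 bp against 334 bp for all. Of all regions at least 800 bp wide, 7.65% had a p of 1. Of the 68 histone regions 34 were that wide, and they include all 7 with a p of 1. The like share is thus 7 of 34 against 7.65%.

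Genes that make, process and load histones were set beside the members, as 3 lists counted over regions within 2 kb. The list of histone expression factors, which holds NPAT, HINFP, SLBP, the 3′ processing factors, the cyclin E and CDK2 kinase and E2F factors, had 21 genes and 91 regions with a median of 0.16. At 0.001, 0 of the 91 were higher and 3 (3.30%) were lower, against 1.24% and 1.22% of all regions. At 0.05 there were 5 (5.49%) in each direction, against 7.98% of all regions higher and 9.21% lower. These shares rest on few regions. The regions that fell were near Cpsf2, a subunit of the cleavage complex (-3.04, adjusted p 4.09e-05), near Ncbp1, the large cap-binding subunit (-2.92, 3.60e-04), and near E2f1 (-1.05, 7.40e-04), by the authors' deposited table. The most abundant regions of Cpsf2 and Ncbp1, with abundances of 4.44 and 4.13, had folds of -0.52 and 0.14 in the authors' deposited table and did not pass. E2f2, an activator of S-phase genes, had 3 regions under 0.05, with folds of 0.94, 1.08 and 1.53 in the authors' deposited table. The other higher values under 0.05 were 1.41 near Cpsf3, a subunit of the cleavage complex, and 1.41 near Ccne1, which encodes cyclin E1, by the same deposited table (adjusted p 0.0217 and 0.0369). The other lower ones were -1.79 near Cpsf2 and -1.96 near Pou2f1, the gene of OCT1, by the authors' deposited table (adjusted p 0.00767 and 0.00519). In the authors' deposited table the most abundant regions of Cpsf3, Ccne1 and Pou2f1 had folds of -0.83, 0.14 and -0.22. Their abundances were 2.48, 4.88 and 5.58, and none was under 0.05. The Ccne1 region at 1.41 had a low abundance of -2.38.

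No region near Npat, Hinfp or Slbp was under 0.05. The wide region of Npat had a fold of 0.99 with an abundance of -0.64 and an adjusted p of 0.159 in the authors' deposited table. The most abundant regions of Hinfp and Slbp had folds of 0.13 and 0.27 and adjusted p-values of 0.604 and 0.521, by the authors' deposited table. The 17 histone chaperones had 46 regions with a median of 0.10, of which 0 were higher and 2 (4.35%) lower at 0.001, against 1.24% and 1.22% of all regions. At 0.05 they were 2 higher (4.35%) and 8 lower (17.4%), against 7.98% and 9.21% of all regions, and 4 of the 8 lower ones lie on chromosome 2. Both that fell at 0.001, Hat1, the acetyltransferase of new H4 (-1.32, 2.35e-04), and Ssrp1, a FACT subunit (-1.07, 7.08e-04), lie on chromosome 2, by the authors' deposited table. E2f1 does too. The median over regions within 2.5 Mb was -0.99 around Hat1, -1.02 around Ssrp1 and -0.91 around E2f1, and over the 12588 regions of chromosome 2 it was -0.56. The part of that chromosome-wide shift in these 3 values was not tested.

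The replication-independent histones had 14 genes and 37 regions, whose log2 folds had a median of 0.50, and of which 1 (2.70%) was higher and 0 lower at 0.001, against 1.24% and 1.22% of all regions. At 0.05 the counts were 7 higher (18.9%) and 0 lower, against 7.98% and 9.21% of all regions, and 2 of the 7 are the H1f0 regions above. The region that rose was a 219 bp one within 2 kb of H3f3b, which encodes the variant H3.3, at 2.31 with an adjusted p of 5.57e-05 in the authors' deposited table. The most abundant region at the same gene, at 5.97, had a fold of -0.01 and an adjusted p of 0.989 in that deposited table.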

How the data were processed

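Bowtie2 2.4.1, SAMtools 1.10.2, Genrich 0.6 and GRCm38 (mm10) are named, per the submitters' processing notes, and csaw, which tests windows, by the title of the table the authors deposited. The sources used here do not give csaw's settings, its normalization or any shift for the transposase's cut. The authors deposited per region a log2 fold change and a log2 average abundance, and a p-value with an adjusted p-value. That abundance is read from the column's place and range. The authors' sets were found to equal the regions under 0.001 with the matching sign, or over 0.9, of the full table.

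Distances ran from a region's centre to the nearest base of a gene's extent among 49997 RefSeq genes (GRCm38.p6). Blocks were split at gaps over 500 kb. Promoter identity was taken from pairwise alignment. Python 3.11.15, pandas 2.3.3, numpy 2.4.6, Biopython 1.88 and matplotlib 3.10.9 were used. Distances and the nearest gene were tested on simulated data, whose genes lay far apart, unlike those of the clusters. The counts were not tested in this way. No test across libraries could be run, and the sources used here do not say if deposited starts are 0-based or 1-based.

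Regions were named when under 0.05, highest or lowest in a cluster, among the 5 most abundant, or just inside or outside 2 kb, and list genes when under 0.001. A further marker of the sorted-out cells is not reported here. Other genes named were chosen after their values were seen. Members and lists were chosen with earlier results of these data known. The alternatives were other distances, overlap, an abundance limit, nearest-gene assignment and other thresholds, and, added after seeing the data, newer symbols only and regions on starts only.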

Additional observations from a re-analysis of the deposited data

How the results depend on the processing

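No paired analysis was possible because each region had 1 value for the comparison, and leaving out each replicate was not run for the same reason. Of 66 alternative values, 55 kept their direction and stayed within 0.1 on the log2 scale or within the same count. Many of them could not have moved. As 0 of the 68 regions passed 0.001, counts in subsets of them and at the stricter limit had to be 0. Several medians of Hist3 and Hist4 rest on the same regions as in the main setting. The tally is therefore no measure of robustness. The count of histone regions higher in leukemic cells was 0 at 0.001 and 7 at 0.05. The Hist2 median, 0.30 over 6 regions, was 0.42 with centres within 1 kb, 0.15 within 5 kb, 0.42 with an overlap of 1 bp, 0.42 with abundance above the median of all regions, and 0.43 over regions on starts only. The Hist1 first block, at 0.38, was 0.27 with an overlap of 1 bp and 0.27 over regions on starts only. Hist3, at 0.97, was 0.39 within 5 kb and 0.32 when the nearest gene had to be a histone gene, which drops the H2bu2 region. Hist4 turned to 0.18 within 5 kb, where a second region joins H4f16. Hist3 and Hist4 have 2 and 1 regions, so 1 region decides them. Regions on starts only was chosen after seeing the data. The depth per library is unknown, so no interval limits any value.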

Other observations

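The histone blocks of chromosome 13 also hold regions of other genes, farther than 2 kb from any histone gene. These regions were picked out after their values were seen. In the first block, 25 of the 35 such regions were nearest a tRNA gene. Their median log2 fold change was 0.60, from -3.50 to 1.89. Under an adjusted p of 0.05, 9 of the 25 were higher and 2 of the 25 lower in leukemic cells. Over all regions the shares at 0.05 were 7.98% higher and 9.21% lower. The region near the tRNA gene n-TIaat11 fell, with -3.50 and an adjusted p of 9.09e-04 in the authors' deposited table. The 32 non-member regions of the second block had a median of -0.45. Of these 32, 2 rose and 0 fell at 0.001, against 1.24% and 1.22% of all regions. A region inside Hfe, which encodes a regulator of iron uptake, had 2.15 and an adjusted p of 4.49e-04 in the authors' deposited table. A region inside Trim38, an interferon-induced ubiquitin ligase gene, had 2.51 and 7.08e-04 in the authors' deposited table. The 3 other regions nearest Hfe and under 0.05 were lower, at -1.34 inside the gene and at -1.03 and -1.62 outside it, in the authors' deposited table.

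Slc17a1, a phosphate transporter gene of kidney and liver, had a region at 2.66 with an adjusted p of 0.00105 and a low abundance of -1.94, and another at 1.94 with 0.00481, in the authors' deposited table. A region 3122 bp from H4bc24 had 1.22 and an adjusted p of 0.00871, and one 4812 bp from H1f1 had -3.09 and 0.0109, in the authors' deposited table.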
